A study of Arabidopsis thaliana with 6 samples.

Results

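The genes described here are 43 Arabidopsis loci of mitosis and cytokinesis, out of 28775 loci counted by RNA sequencing in the inflorescence apex. They were taken by locus from a list of A- and B-type cyclins, cyclin-dependent kinases (CDKs), their regulators, and proteins of the spindle, the spindle checkpoint and the division plate. The study compared 3 apex samples treated with dexamethasone, a synthetic glucocorticoid that allowed expression of AP2m3, a form of the floral regulator APETALA2 (AP2), with 3 mock-treated samples. Plants of both groups grew at 21 °C under 16 h of light and 8 h of dark, were treated 2 weeks after bolting, and gave apices from 6 to 8 h later that had been cleared of visible flower primordia. Not given in the sources used here are the line, the promoter of the construct, the mock solution and the number of plants per sample. The labels do not say whether replicate samples were independent plants or pools. The p-values set the difference between the groups against the spread among samples of a group, and that spread may therefore be only technical.

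Plant cells enter mitosis when A- and B-type cyclins bind CDKs, of which the B-type kinases (CDKB) are particular to plants and are made mainly in G2 and M phase. Many genes of this phase carry a mitosis-specific activator (MSA) element, which three-repeat MYB proteins (MYB3R) bind. Mitosis ends when the anaphase-promoting complex (APC/C), switched on by CDC20 and CCS52 proteins, marks the cyclins for destruction, and when vesicles fuse into a cell plate within the phragmoplast, a microtubule array between the daughter nuclei.

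The dexamethasone libraries, called Dx4, Dx5 and Dx6, held 1833795 to 2109788 counts, and the mock libraries, called CT1, CT2 and CT3, held 1633571 to 2196781 counts. Levels are given as CPM, a gene's count scaled by the size of its library, in the library order Dx4, Dx5, Dx6 and then CT1, CT2, CT3. The induced gene AP2 had 1091, 1178 and 1001 CPM with dexamethasone, against 55.3, 60.0 and 77.5 CPM in mock, a log2 fold change of 4.08 ± 0.15 (SE; edgeR quasi-likelihood test, adjusted p = 2.823e-13). The counts do not separate AP2m3 transcripts from those of the plant's own AP2. Dexamethasone libraries resembled each other more (Pearson r of log2 CPM across genes 0.974 to 0.975) than mock libraries did (0.942 to 0.964). Meristem markers STM, KNAT1 and CLV1 were present in each library, WUS lay between 3.31 and 6.21 CPM, and CLV3 had no count in any library.

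The bases before the annotated start are shown for the 4 genes that passed the test and, for comparison, for CYCB1;2 and KNOLLE, the B-type cyclin and the cytokinesis gene with the highest levels. Sequences, coordinates and strands are those of the RefSeq annotation of TAIR10.1, matched by locus, and the build behind the counts is not given in the sources used here. Each line holds the 250 bases upstream, read 5′ to 3′ on the strand of the gene. Capitals mark AACGG, the core of the MSA element, or its reverse complement.
AUR1, chr4:15842193-15842442, plus strand: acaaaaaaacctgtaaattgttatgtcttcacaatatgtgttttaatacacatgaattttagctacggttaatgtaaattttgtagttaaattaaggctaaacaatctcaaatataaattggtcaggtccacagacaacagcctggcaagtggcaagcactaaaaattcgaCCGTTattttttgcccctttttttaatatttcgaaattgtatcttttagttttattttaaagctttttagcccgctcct
CDKB1;2, chr2:16152223-16152472, plus strand: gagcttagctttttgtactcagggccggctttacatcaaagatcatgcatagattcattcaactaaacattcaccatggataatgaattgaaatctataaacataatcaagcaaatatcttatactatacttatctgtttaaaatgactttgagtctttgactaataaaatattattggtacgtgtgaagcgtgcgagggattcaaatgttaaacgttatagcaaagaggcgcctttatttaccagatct
CKS2, chr2:11913426-11913675, minus strand: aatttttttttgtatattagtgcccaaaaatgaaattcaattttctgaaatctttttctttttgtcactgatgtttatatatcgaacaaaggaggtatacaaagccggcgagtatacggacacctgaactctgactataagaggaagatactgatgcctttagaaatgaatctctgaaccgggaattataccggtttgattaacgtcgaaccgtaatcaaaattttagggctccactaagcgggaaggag
CYCA2;1, chr5:8814267-8814516, plus strand: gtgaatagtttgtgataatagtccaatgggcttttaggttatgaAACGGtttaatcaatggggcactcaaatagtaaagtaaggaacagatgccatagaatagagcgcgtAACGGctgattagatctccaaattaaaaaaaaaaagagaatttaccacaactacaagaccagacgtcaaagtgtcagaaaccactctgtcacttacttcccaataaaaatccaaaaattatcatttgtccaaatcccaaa
CYCB1;2, chr5:1861704-1861953, minus strand: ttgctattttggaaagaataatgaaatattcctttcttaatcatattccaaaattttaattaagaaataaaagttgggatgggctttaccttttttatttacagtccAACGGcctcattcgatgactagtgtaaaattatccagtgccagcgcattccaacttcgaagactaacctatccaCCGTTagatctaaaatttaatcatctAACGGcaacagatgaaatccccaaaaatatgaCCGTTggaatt
KNOLLE, chr1:2711001-2711250, minus strand: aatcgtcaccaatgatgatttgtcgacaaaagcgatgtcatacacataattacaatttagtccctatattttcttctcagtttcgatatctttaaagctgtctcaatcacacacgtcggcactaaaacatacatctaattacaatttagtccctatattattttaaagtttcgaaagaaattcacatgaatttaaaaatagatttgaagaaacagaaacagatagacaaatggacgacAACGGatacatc

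AUR1 held 1 core in this stretch, 79 bases before its start, and CYCA2;1 held 2, at 206 and 140 bases. CYCB1;2 held 4, and 1 more began 3 bases after the start, outside the printed stretch. The core of KNOLLE lay 12 bases before its start, with 2 more after it, at 12 and 36 bases. CDKB1;2 had no match between 250 bases before and 50 bases after its start, and the 1 match of CKS2 lay 39 bases after the start.

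With dexamethasone, 4 of the 43 genes rose and none fell. They were the mitotic kinase AUR1, the CDK gene CDKB1;2, the CDK subunit gene CKS2 and the low-level cyclin CYCA2;1, with changes of 1.44-fold to 2.66-fold. All 43 passed the filter on low counts. Over all 15857 genes tested, 5.86% were called higher and 8.02% lower, 13.9% in all, at an edgeR quasi-likelihood adjusted p under 0.05, so 9.3% called higher among the 43 stands near the background of higher calls. Without adjustment, 13 of the 43 (30.2%) had a p under 0.05, against 26.7% of all genes tested. The calls depended on single libraries: the count was 3 without CT1, 2 without CT2, 8 without CT3, 2 without Dx4, 0 without Dx5 and 1 without Dx6. Unadjusted, an edgeR p under 0.05 was reached by 10 of the 43 without CT1, 8 without CT2 and 18 without CT3. It was reached by 12 without Dx4, 7 without Dx5 and 9 without Dx6. Over all genes tested the shares were, in the same order, 25.2%, 21.8%, 34.3%, 21.6%, 20.7% and 20.8%. The share over all genes thus also moved with the library left out. DESeq2's Wald test called none, with 7 of the 43 at an unadjusted p under 0.05, against 13.4% of all genes.

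Most of the 43 genes had slightly higher values with dexamethasone, and 39 of the 43 did not pass the test. The log2 fold change was above 0 in 38 of 43 (88.4%), against 50.5% of all genes tested. The median was 0.22, with quartiles of 0.07 and 0.38, and over all genes tested the median was 0.0035, with quartiles of -0.24 and 0.22. The median standard error of a member was 0.17. Over the other scalings, filters, tests and left-out libraries, the median of the 43 stayed between 0.20 and 0.28 and the number above 0 between 34 and 39. The extremes were CYCA2;1 at 1.41 and AUR3 at -0.36.

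**Figure D1:**
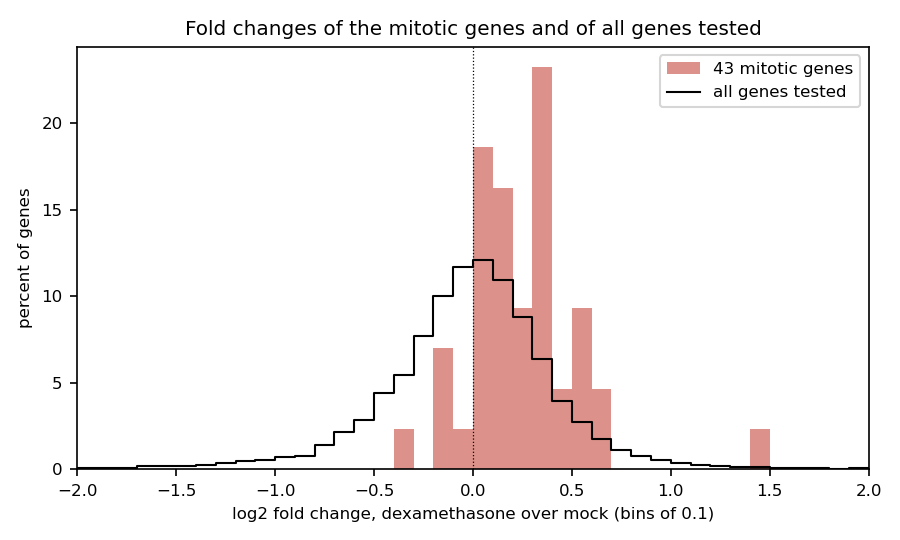
Percent of genes (vertical axis) in bins of log2 fold change, dexamethasone over mock (horizontal axis), for the 43 mitotic genes (bars) and all 15857 genes tested (line). The bars are shifted to the right but overlap the bulk of the line, with 38 of 43 genes above 0, and CYCA2;1 stands alone at 1.41.

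Summed over the 43 genes, the level was 2293, 2297 and 2183 CPM in the dexamethasone libraries, against 2045, 1912 and 1918 CPM in the mock libraries. The means were 2257 ± 64.7 and 1959 ± 75.1 CPM (SD, n = 3 each), and the groups did not overlap. In bulk samples, more cells of a type and more RNA per cell cannot be told apart. In 15 of the 43 genes (34.9%) each dexamethasone library lay above each mock library, and in none did each lie below. Over all genes tested these shares were 15.1% and 15.9%.

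**Figure D2:**
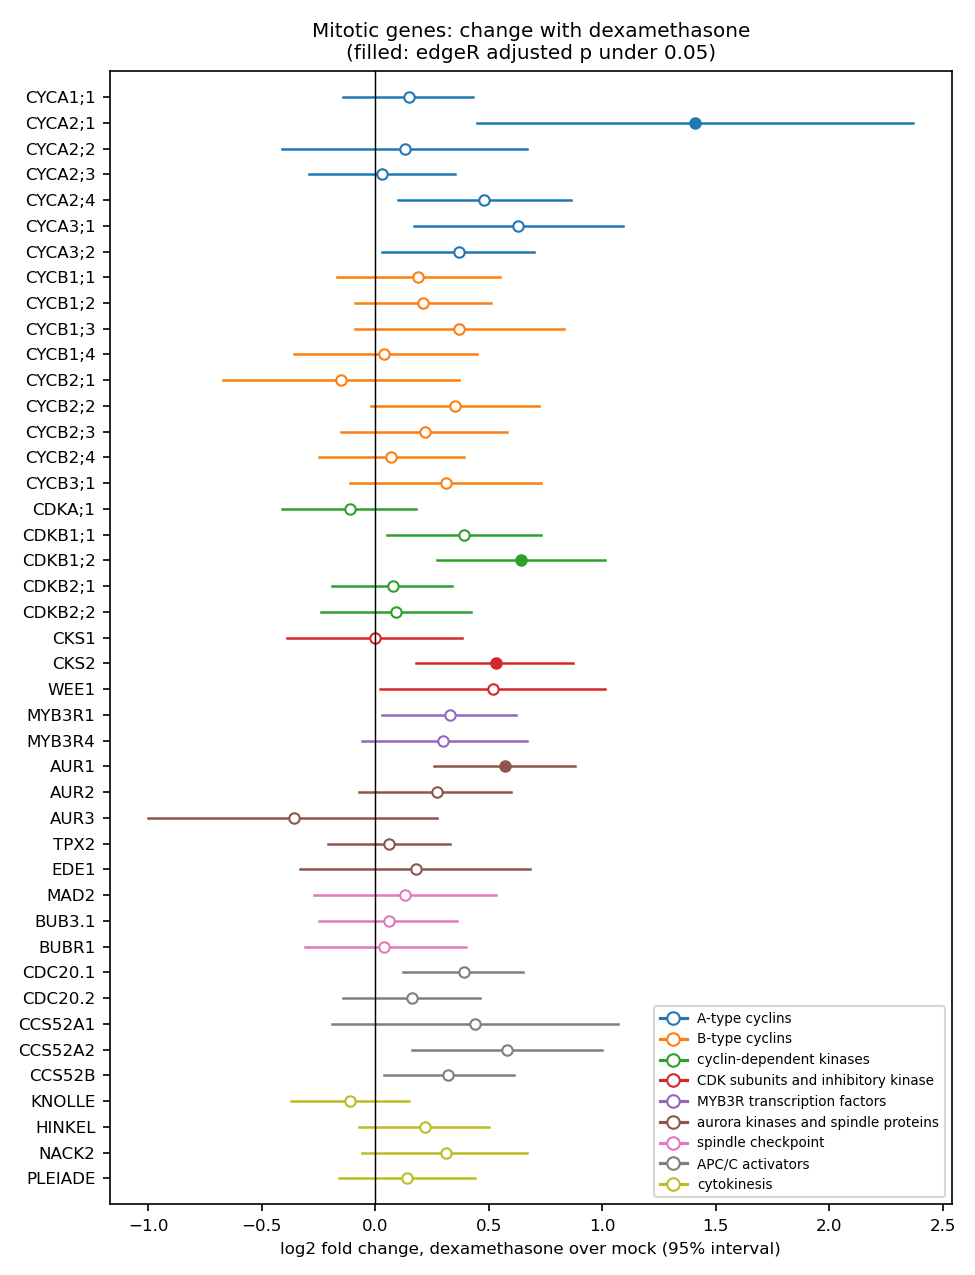
Log2 fold change of each of the 43 genes, dexamethasone over mock (horizontal axis), with its 95% interval, coloured by role. The 4 filled points, CYCA2;1, CDKB1;2, CKS2 and AUR1, passed an edgeR adjusted p under 0.05, and 5 points lie below 0.

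Other measures moved with the groups. The summed level of 5 green leaf markers was 3509, 3350 and 3481 CPM with dexamethasone, against 6381, 5889 and 5402 CPM in mock, and 4 of the 5 were called lower. Of 5 flower primordium markers, AP1 and SEP3 were called lower and none higher, with sums of 653 to 669 CPM with dexamethasone, against 757 to 869 CPM in mock. AP3 of the same list went the other way without overlap, at 184 to 196 CPM with dexamethasone, against 143 to 165 CPM in mock (log2 0.32, edgeR adjusted p = 0.09114), and PI and AG had log2 values of 0.04 and -0.15. The sum of 5 meristem markers was 256 to 274 CPM with dexamethasone, against 194 to 225 CPM in mock, and CLV1, a receptor kinase of the stem cell niche, was called higher at a log2 of 0.72. STM and KNAT1 of the same list overlapped between the groups and were not called, at log2 values of 0.15 and 0.30. WUS, which was not tested, had a mean of 4.32 CPM with dexamethasone and 4.82 CPM in mock, and CLV3 had no count. Meiosis markers summed to 50 to 59.4 CPM with dexamethasone, against 37.3 to 42.0 CPM in mock, with 0 of 3 tested ones called, and SDS, a meiotic cyclin, had a log2 of 0.79 (edgeR adjusted p = 0.08546). Tapetum and anther markers summed to 155 to 222 CPM with dexamethasone, against 82.7 to 219 CPM in mock, with 0 of 4 tested ones called. A set of 8 clock genes that peak around dawn summed to 61.4, 53.1 and 41.1 CPM with dexamethasone, against 163, 120 and 72.9 CPM in mock, and LNK1 was called lower among the 3 that were tested. The part of these shifts in the values of the mitotic genes was not tested. A fit with the clock genes as a covariate was run. That fit cannot separate their part from the treatment, because their summed levels did not overlap between the groups.

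The A-type cyclins, which act with CDKs from S phase to early mitosis, all had log2 fold changes above 0, from 0.03 to 1.41, with a median of 0.37 over 7 genes. Only CYCA2;1 (AT5G25380) passed the test. It had 11, 11 and 20 counts (5.98, 5.84 and 9.45 CPM) with dexamethasone, against 1, 7 and 8 counts (0.621, 3.18 and 3.69 CPM) in mock. The groups did not overlap, and CT1 was the lowest library. Its log2 fold change was 1.41 ± 0.46 (SE; edgeR adjusted p = 0.04607). The call held without CT3 alone of the 6 libraries, and the adjusted p was 0.09008 to 0.2687 without each of the others. With the clock genes as a covariate, which that fit cannot separate from the treatment, the log2 was 0.44 (edgeR adjusted p = 0.7309).

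CYCA3;1, of the A3 class that is made around S phase, had 26.1, 30.3 and 18.4 CPM with dexamethasone, against 18.0, 15.4 and 14.8 CPM in mock. Dx6 lay just above the highest mock library, and the log2 of 0.63 ± 0.22 did not pass (edgeR adjusted p = 0.06194). Without Dx6 the log2 was 0.82 (adjusted p = 0.03844). CYCA1;1, the mitotic A-type cyclin with the highest level per length, had 53.3, 55.7 and 60.5 CPM with dexamethasone, against 48.5, 53.6 and 50.7 CPM in mock. The groups overlapped, at a log2 of 0.15 ± 0.14 (edgeR adjusted p = 0.5466). CYCA2;4 and CYCA3;2 did not overlap between groups either, at log2 values of 0.48 and 0.37 that did not pass.

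None of the 9 B-type cyclins, the cyclins that drive entry into mitosis, passed the test. Their log2 fold changes ran from -0.15 in CYCB2;1 to 0.37 in CYCB1;3, with 8 of 9 above 0 and a median of 0.21. CYCB1;2 had 116, 107 and 84.6 CPM with dexamethasone, against 91.4, 79.5 and 95 CPM in mock. Its groups overlapped, with Dx6 below CT1 and CT3, and the log2 was 0.21 with a 95% interval of -0.09 to 0.51 (edgeR adjusted p = 0.3824). CYCB1;1, widely used as a reporter of G2 and M phase, had 42.4, 46.2 and 48.7 CPM with dexamethasone, against 40.4, 30.0 and 50.3 CPM in mock. CT3 was above each dexamethasone library, and the log2 of 0.19 had an interval of -0.17 to 0.55. CYCB2;2 and CYCB3;1 were the B-type cyclins whose groups did not overlap, at 0.35 and 0.31.

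Among the 5 CDKs, CDKB1;2 (AT2G38620) rose. It had 29.9, 37.7 and 35.0 CPM with dexamethasone, against 24.9, 20.9 and 20.8 CPM in mock, with no overlap. The log2 fold change was 0.64 ± 0.18 (SE; edgeR adjusted p = 0.01981), or 1.55-fold. The call was lost without CT2, Dx5 or Dx6, at adjusted p of 0.0889, 0.1145 and 0.08916. Its paralog CDKB1;1 had 40.2, 49.9 and 44.9 CPM with dexamethasone, against 32.9, 29.5 and 40.1 CPM in mock. Dx4 and CT3 nearly met, and the log2 of 0.39 ± 0.16 did not pass (edgeR adjusted p = 0.1227).

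CDKB2;1, a kinase of the later B2 class and the CDK with the highest level per length, had 84.8, 80.7 and 77.5 CPM with dexamethasone, against 77.7, 75 and 77.5 CPM in mock. The groups overlapped at Dx6 and CT1, and the 95% interval of the log2 was -0.19 to 0.34 around 0.08. CDKB2;2 had a log2 of 0.09 and CDKA;1, the CDK of the whole cycle, a log2 of -0.11, with an interval of -0.41 to 0.18.

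CKS2 (AT2G27970), which encodes a small protein that docks on CDKs, had 90.8, 86.0 and 77.0 CPM with dexamethasone, against 75.2, 59.5 and 43.4 CPM in mock. Dx6 and CT1 lay close together without overlapping, and the mock libraries were widely spread. The log2 fold change was 0.53 ± 0.16 (SE; edgeR adjusted p = 0.03878), or 1.44-fold. The call held without CT1 (adjusted p = 0.004356) and was lost without any other library, at adjusted p of 0.05983 to 0.1712, with the log2 at 0.34 without CT3. With the clock genes as a covariate the log2 was 1.07 (edgeR adjusted p = 2.5e-05), in a fit that cannot separate these genes from the treatment.

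Its paralog CKS1 had 57.1, 37.7 and 51.5 CPM with dexamethasone, against 56.6, 54.5 and 36.4 CPM in mock. Each group had 1 low library, and the log2 of -0.0015 had a 95% interval of -0.39 to 0.38 and was 0.01 on library size alone. WEE1, a kinase that restrains CDKs, had 15.8, 15.4 and 17.5 CPM with dexamethasone, against 9.94, 11.8 and 12 CPM in mock. The groups lay apart, yet the log2 of 0.52 ± 0.24 did not pass (edgeR adjusted p = 0.1671), on 16 to 37 counts a library.

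The MYB3R genes, whose proteins bind the MSA element, had log2 fold changes of 0.33 for MYB3R1 and 0.30 for MYB3R4, and neither passed. MYB3R1 had 57.1, 65.8 and 67.6 CPM with dexamethasone, against 55.3, 45.0 and 52.6 CPM in mock. The groups did not overlap, though Dx4 and CT1 lay close (edgeR adjusted p = 0.1464).

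**Figure D3:**
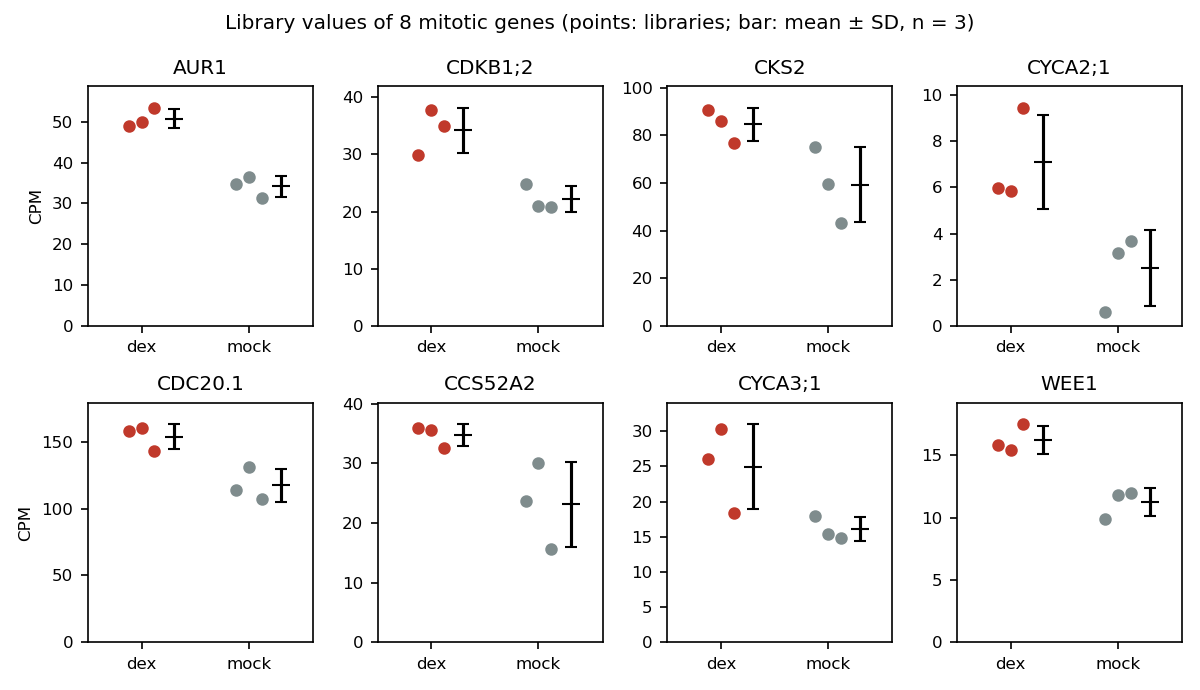
CPM (vertical axes, each starting at 0) in the 3 dexamethasone and 3 mock libraries, left and right in each panel, for 8 genes, with the mean and SD as bars beside the points. The 4 upper panels are the genes called higher, the 4 lower ones were not called, and in each panel the dexamethasone points lie above the mock points. All 8 are among the 15 of the 43 genes whose groups did not overlap, so this separation follows from the choice of genes.

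AUR1 (AT4G32830), an aurora kinase of the spindle and the forming cell plate, gave the smallest adjusted p of the 43 genes. It had 48.9, 49.9 and 53.4 CPM with dexamethasone, against 34.8, 36.4 and 31.4 CPM in mock. The 2 sets of values lay well apart, and neither group was widely spread. The log2 fold change was 0.57 ± 0.15 (SE; edgeR adjusted p = 0.01301), or 1.49-fold, and the call was lost without Dx5 or Dx6, at adjusted p of 0.05277 and 0.08507.

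AUR2, its close paralog, had 40.2, 37.2 and 47.3 CPM with dexamethasone, against 34.2, 30.9 and 38.7 CPM in mock. The groups overlapped through Dx5 and CT3, at a log2 of 0.27 ± 0.16 (edgeR adjusted p = 0.3147). AUR3, the aurora kinase of centromeres, had 11.4, 9.02 and 8.51 CPM with dexamethasone, against 18.6, 10.9 and 8.76 CPM in mock. CT1 stood high, and without it the log2 was -0.04, in place of -0.36. TPX2, a spindle assembly factor, had the highest level of this class per length in mock, at 27.7 CPM per kb, while AUR1 was higher with dexamethasone, at 33.6 against 29 CPM per kb for TPX2. By library, TPX2 had 88.6, 86.0 and 78.0 CPM with dexamethasone, against 82.7, 75.9 and 83.0 CPM in mock. These values overlapped, with a 95% interval of the log2 of -0.21 to 0.33. EDE1, a microtubule-binding protein, had a log2 of 0.18.

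The 3 spindle checkpoint genes, whose proteins hold back anaphase until chromosomes are attached, had log2 values of 0.04 to 0.13 and none passed. MAD2 had 82.1, 101 and 65.2 CPM with dexamethasone, against 90.7, 83.2 and 54.9 CPM in mock. The libraries of both groups were spread and overlapped, and the 95% interval of the log2 was -0.27 to 0.53. With the clock genes as a covariate, MAD2 had a log2 of 0.68 (edgeR adjusted p = 0.01012), in a fit that cannot separate these genes from the treatment. BUB3.1 and BUBR1 had log2 values of 0.06 and 0.04.

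The 5 activators of the APC/C had log2 fold changes of 0.16 to 0.58, with a median of 0.39, and none passed. CDC20.1, which activates the complex in mitosis, had 158, 160 and 143 CPM with dexamethasone, against 114, 131 and 107 CPM in mock. The groups did not overlap, and the log2 of 0.39 ± 0.13 lay at the threshold (edgeR adjusted p = 0.05002). CCS52A2, an activator known from endoreduplication and meristem maintenance, had 35.9, 35.6 and 32.6 CPM with dexamethasone, against 23.6, 30.0 and 15.7 CPM in mock. The mock libraries were spread below the dexamethasone libraries, at a log2 of 0.58 ± 0.20 (edgeR adjusted p = 0.06009), which was 0.35 without CT3. CCS52B, the activator made in G2 and M phase, had a log2 of 0.32 without overlap (edgeR adjusted p = 0.1239). With the clock genes as a covariate, CDC20.1, CCS52A2 and CCS52B were called higher, at edgeR adjusted p of 0.02381, 0.01015 and 0.01232. That fit cannot separate the clock genes from the treatment, so it adds no support to a rise. CDC20.1 and CCS52A2 were also called with limma-voom (adjusted p = 0.04714 and 0.04872) and with no filter beyond 1 count (adjusted p = 0.03871 and 0.02013).

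None of the 4 cytokinesis genes passed, and their summed level was 352, 352 and 354 CPM with dexamethasone, against 347, 309 and 354 CPM in mock. KNOLLE, the syntaxin of cell plate vesicles, had 146, 146 and 144 CPM with dexamethasone, against 177, 148 and 146 CPM in mock. Only CT1 stood apart, and the log2 of -0.11 had a 95% interval of -0.37 to 0.15. HINKEL and NACK2, kinesins that act in phragmoplast expansion, had log2 values of 0.22 and 0.31, and PLEIADE, a microtubule bundler of the phragmoplast, 0.14.

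**Figure D4:**
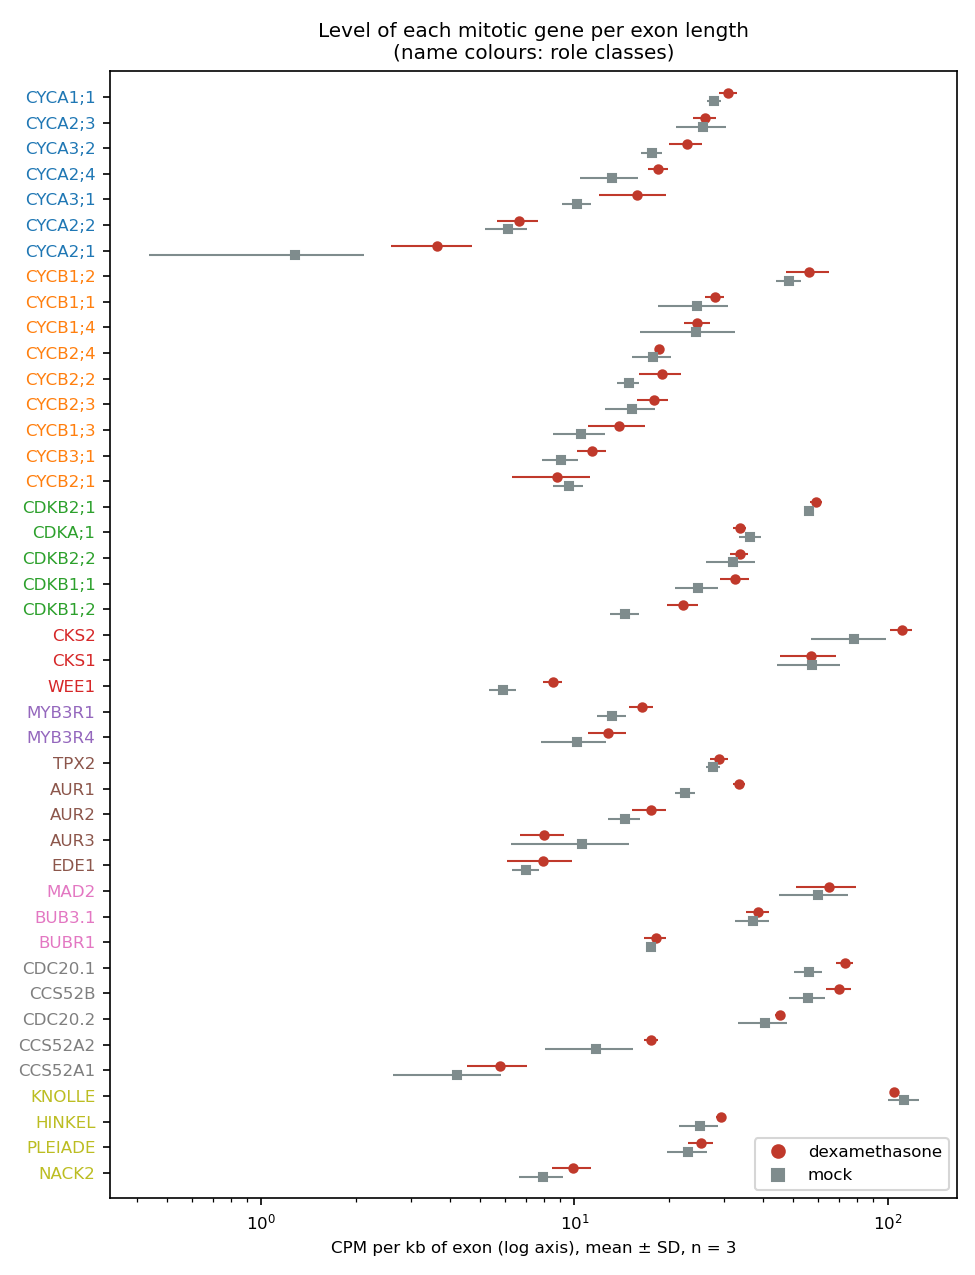
CPM per kb of exon (horizontal log axis) of each gene as mean ± SD of 3 dexamethasone (circles) and 3 mock libraries (squares), with genes grouped by role. KNOLLE and CKS2 lie at the right end, at 105 and 111 CPM per kb with dexamethasone, and CYCA2;1 lies at the left end, at 3.64 CPM per kb.

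Per kb of exon, ordered by the mean over the libraries of both groups, KNOLLE stood first, at 105 ± 1.04 CPM per kb with dexamethasone and 113 ± 12.6 CPM per kb in mock (SD, n = 3 each). CKS2 came next, at 111 ± 9.15 CPM per kb with dexamethasone and 77.9 ± 20.9 CPM per kb in mock, so CKS2 had the higher mean with dexamethasone and KNOLLE in mock, and with dexamethasone they did not differ beyond their spread. CDC20.1, CCS52B and MAD2 followed, at 73.2 ± 4.51, 70.0 ± 6.26 and 65.1 ± 14.2 CPM per kb with dexamethasone, and these neighbours did not differ beyond their spread. CYCA1;1 led the A-type cyclins at 31.0 CPM per kb with dexamethasone and 27.9 CPM per kb in mock. At the low end were CCS52A1, at 5.79 and 4.22 CPM per kb, and CYCA2;1, at 3.64 and 1.28 CPM per kb, again with dexamethasone and in mock. Within the dexamethasone group the highest library of a gene was 1.19 times its lowest (median over the 43 genes), and within the mock group 1.30 times.

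Several of these genes have close copies, so the change of one copy against the other was compared within each library. Coding sequences were 97.5% identical between CDC20.1 and CDC20.2, 85.9% between CDKB1;1 and CDKB1;2, 85.7% between CKS1 and CKS2 and 83.2% between AUR1 and AUR2. The ratio of CKS2 to CKS1 was 1.59, 2.28 and 1.5 with dexamethasone, against 1.33, 1.09 and 1.19 in mock. The groups did not overlap, at the smallest p that 3 libraries against 3 allow (two-sided exact permutation test, p = 0.1, adjusted over 4 pairs 0.2). The ratio of AUR1 to AUR2 was 1.22, 1.34 and 1.13 with dexamethasone, against 1.02, 1.18 and 0.81 in mock, and the groups overlapped (exact permutation p = 0.2). The ratios of CDKB1;2 to CDKB1;1 and of CDC20.1 to CDC20.2 also overlapped (exact permutation p = 0.2 each). With 3 libraries a group this test cannot pass a threshold of 0.05, so whether one copy changed beyond the other is not settled by it.

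Some exons also lie within exons of neighbouring genes, and the sources used here do not give the strand setting of the counting. Of the exon sequence of AUR1, 22.5% is shared with other loci, the largest part with PFK6. PFK6 lies on the opposite strand and had a log2 of 0.32 (edgeR adjusted p = 0.3451). For CDKB1;2 the share was 16.2%, with AT2G38630 on the opposite strand at a log2 of 0.27, and for CKS2 it was 3.18%. KNOLLE shared 32.2%, the largest part with NPQ1 on the opposite strand, which was called lower at a log2 of -0.87 (edgeR adjusted p = 0.0008854). CDC20.1 shared 33.2% of its exon sequence with other loci, the largest part with CDC20.2, and CDC20.2 shared 36.3%, the largest part with CDC20.1. AUR2, the paralog compared with AUR1, shared 43.8%, the largest part with AT2G25890 on the opposite strand. AT2G25890 had no count in any library. CCS52B shared 21%, the largest part with AT5G02105 on the opposite strand. Counts of all these genes are uncertain where reads could be divided, and so is the ratio of AUR1 to AUR2. Among the 29 genes that share under 1%, 26 had a log2 above 0 (89.7%, against 50.5% of all genes tested), with a median of 0.19. Of these 29, only CYCA2;1 was called (3.45%, against 5.86% of all genes tested called higher).

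In the windows around the annotated starts, MSA matches were spread unevenly over the roles. A window held 250 bases before and 50 bases after the start, and both strands were searched. The core AACGG was in 26 of 43 windows (60.5%), against 24.7% of 27443 gene windows of the same length. The longer form CCAACGG or CTAACGG, which contains the core, was in 11 (25.6%), against 3.11% of all. The longer form was in 7 of 9 B-type cyclins, 2 of 4 cytokinesis genes, TPX2 and BUB3.1, and the core was in all 4 cytokinesis genes but in 1 of 5 CDKs and 1 of 5 APC/C activators.

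By fold change, the 26 genes with a core had a median log2 of 0.21, with 24 above 0 and 3 called, and the 17 without it had a median of 0.32, with 14 above 0 and 1 called. The 11 genes with the longer form had a median of 0.19 and no call, against 0.31 and 4 calls (12.5%) for the 32 without it. Of the genes with a core 11.5% were called higher and of those without it 5.88%, against 5.86% of all genes tested. With so few calls, these shares do not tell the sets apart. The site II element TGGGCC, bound by TCP factors, was in 7 windows (16.3%), against 15.5% of all. The word TTTGTT, reported to be bound by AP2, was in 25 windows (58.1%), against 61.4% of all. A match is a run of letters and does not show binding.

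**Figure D5:**
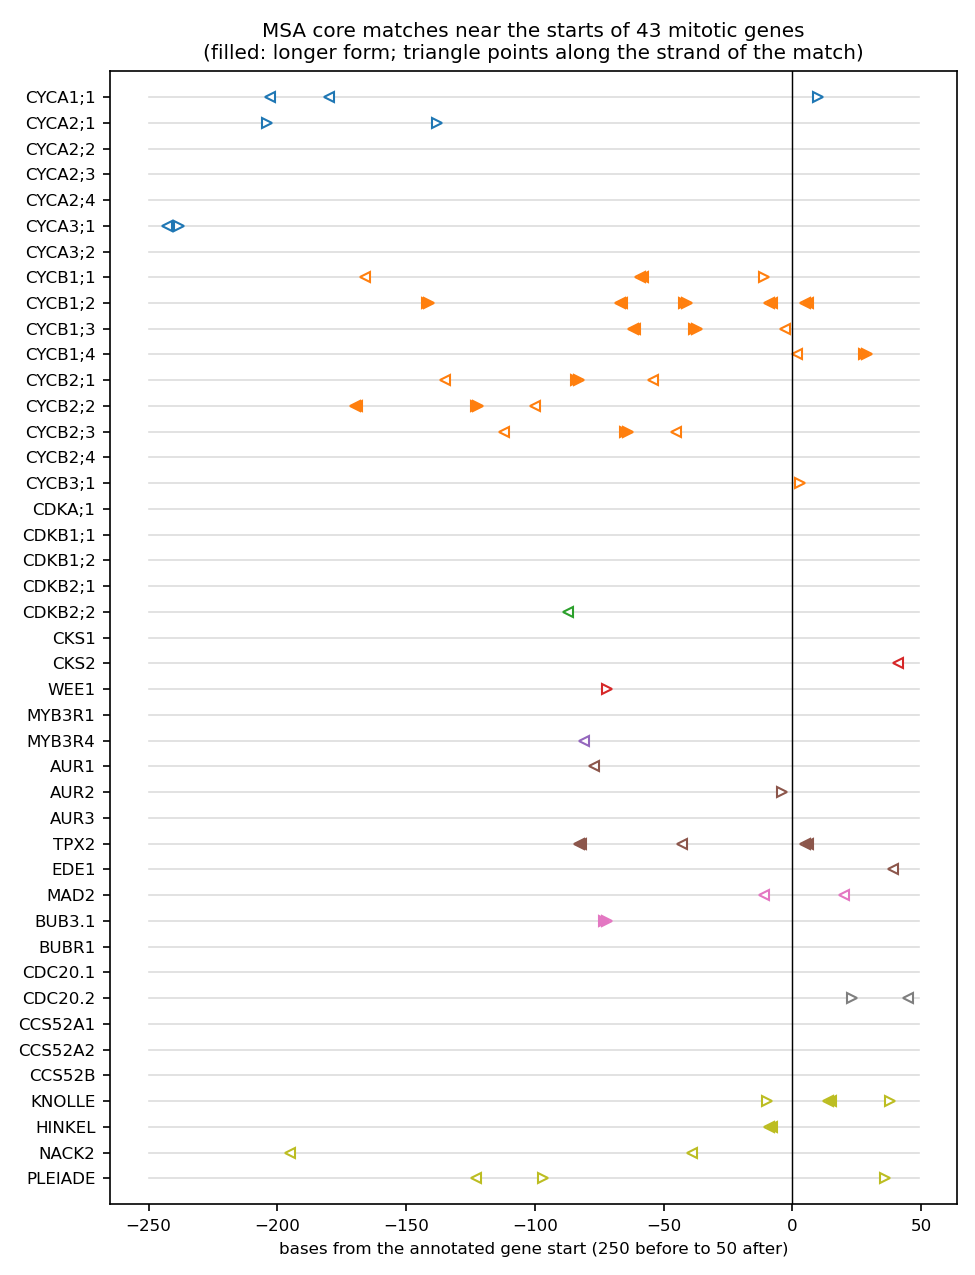
Matches of the MSA core (triangles, filled for the longer form, pointing along the strand of the match) by distance in bases from the annotated start (horizontal axis, 250 before to 50 after) for the 43 genes. Filled triangles are mostly those of B-type cyclins, and 17 genes have no match.

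Of 60 further genes of the same processes, all tested, 7 rose and none fell, with 46 log2 values above 0 and a median of 0.16, where 5.86% of all genes tested were called higher and 50.5% lay above 0. The list of 13 genes of CDK activation and G2/M control held 3 of the 7 (23.1% of the list, against 5.86% of all genes tested). Its median log2 was 0.11, with 8 of 13 above 0. In 3 of its genes each dexamethasone library lay above each mock library, and in 2 each lay below. CDKD;1, a CDK-activating kinase, had 33, 38 and 49 counts with dexamethasone, against 11, 10 and 11 counts in mock. The groups were far apart, and the log2 of 1.92 ± 0.27 (edgeR adjusted p = 7.878e-05) held without any 1 library. CDKD;2 of the same family had a log2 of -0.64 that did not pass (edgeR adjusted p = 0.06159).

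UVI4, an inhibitor of the APC/C, had 22.3, 18.6 and 18.0 CPM with dexamethasone, against 10.6, 11.8 and 12.9 CPM in mock. The groups did not overlap, at a log2 of 0.72 ± 0.23 (edgeR adjusted p = 0.03988), and the call held without CT3 alone, the adjusted p reaching 0.1743 without Dx4. AT1G63100, annotated as a GRAS family transcription factor, had 119, 98.7 and 95 CPM with dexamethasone, against 72.1, 80.0 and 63.2 CPM in mock. These values did not overlap either, at a log2 of 0.54 ± 0.14 (edgeR adjusted p = 0.01416, and 0.1232 without Dx4).

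Of 23 phragmoplast and division plane genes, 3 rose (13%, against 5.86% of all genes tested), with a median log2 of 0.17 over the list. NPSN11, a SNARE protein that works with KNOLLE in cell plate fusion, had 60.3, 61.0 and 60.5 CPM with dexamethasone, against 26.7, 31.4 and 33.2 CPM in mock. It rose 1.98-fold, at a log2 of 0.98 ± 0.15 (edgeR adjusted p = 0.0001479), and held without any 1 library. MAP65-2, a microtubule bundler, had 220, 244 and 192 CPM with dexamethasone, against 138, 152 and 168 CPM in mock. Its groups did not overlap, at a log2 of 0.51 ± 0.13 (edgeR adjusted p = 0.01164), and the call was lost without CT2, Dx4 or Dx5, with the adjusted p reaching 0.1168. AT2G28620 had 87.5, 108 and 88.9 CPM with dexamethasone, against 66.5, 70.4 and 73.8 CPM in mock. The groups lay apart, at a log2 of 0.43 ± 0.14 (edgeR adjusted p = 0.03929), a call that held without CT3 alone of the 6 libraries, the adjusted p reaching 0.2462 without Dx5.

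Of 12 kinetochore, checkpoint and segregation genes, 1 rose (8.33%, against 5.86% of all genes tested), with a median of 0.14. CENH3, the centromeric histone, had 43.5, 41.4 and 38.8 CPM with dexamethasone, against 26.1, 30.9 and 23.5 CPM in mock. The groups did not overlap, at a log2 of 0.61 ± 0.17 (edgeR adjusted p = 0.01666), and the call was lost without Dx4 or Dx5, with the adjusted p reaching 0.08496. None of 12 subunits of the APC/C passed, with 10 log2 values above 0 and a median of 0.20.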

How the data were processed

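The authors deposited raw, not normalized, read counts per locus, made with HTSeq according to the table's name. The submitters' processing notes list TopHat, Bowtie, RSEM and Cufflinks with no version. Build, annotation and strand setting: not given in the sources used here. Columns headed CT were taken as mock and Dx as dexamethasone, and column numbers were not used.

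The main test was edgeR 4.0.16 under R 4.3.3 (TMM, filterByExpr with a minimum count of 10, robust quasi-likelihood test, two-sided, no covariate), with Benjamini-Hochberg adjustment over the 15857 genes tested. The SE was taken as the absolute log2 fold change over the square root of F. CPM used TMM-scaled library sizes. At 3 counts, the limit a count of 0 allows, a library reads 1.36 to 1.86 CPM, for counting error only. Simulated data were used to test the fit. Counts of each pair of libraries of a group differed by more than sampling noise (chi-square per gene 1.27 to 5.49), so each counted as 1 sample.

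The members, the pathway, marker and clock lists (CCA1, LHY, PRR9, CDF1, LNK1, LNK2, RVE1 and RVE8) and the tests were chosen with earlier results of these data known. Full values are given for members past the threshold, their paralogs, those with no overlap and a log2 change of at least 0.5, the highest member per length in each role, AP2, and up to 4 called genes per pathway list. AUR3, CYCB1;1, CDC20.2 and other members are added by choice after their values were seen. Exon length, shared 50-base words, upstream sequence and coding identity came from RefSeq TAIR10.1, which lists 28009 of the 28775 loci; coding sequences stand in for the proteins that had been planned. Alternatives were other scalings, filters and tests (DESeq2 1.42.0, limma-voom 3.58.1), an adjusted p under 0.1, the clock genes as a covariate, and leaving out each library.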

Additional observations from a re-analysis of the deposited data

How the results depend on the processing

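The 4 members called higher became 7 with no filter beyond 1 count, 8 with the clock-gene covariate, 8 at an adjusted p under 0.1, 0 with the DESeq2 Wald test and 0 to 8 leaving out 1 library, and no member was called lower in any of these. Unadjusted, 13 members had an edgeR p under 0.05 with no filter beyond 1 count and 10 with the clock-gene covariate. Over all genes in those fits the shares were 21.9% and 24.8%. For no filter, the covariate and the threshold of 0.1, the share of all genes called at an adjusted p is not given here. Those counts of calls are therefore no result about the members. The covariate fit also cannot separate the clock genes from the treatment. Over all genes, DESeq2 called 506 higher and 772 lower, and leaving out 1 library gave 441 to 1816 higher and 668 to 1974 lower. Of the 60 pathway genes, DESeq2 called 4 higher and leaving out 1 library 2 to 12, while 1 was lower with no filter, 1 at an adjusted p under 0.1, and 0 to 1 leaving out 1 library. On the gene strand alone, the MSA core was in 17 windows and the AP2 word in 11. The cause of these shifts was not tested.

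Signs turned with the clock-gene covariate, at log2 values of -0.08 for CYCB1;1, 0.39 for CKS1, -0.001 for MYB3R4, 0.40 for AUR3, -0.10 for BUB3.1, -0.19 for CCS52A1, 0.06 for KNOLLE and -0.03 for PLEIADE. CKS1 was at 0.01 on library size alone, with no filter and with limma-voom. Leaving out 1 library, the log2 ran from -0.0017 to 0.25 for CYCA2;2, -0.06 to 0.17 for CYCA2;3, -0.16 to 0.30 for CYCB1;4, -0.30 to 0.08 for CYCB2;1, -0.05 to 0.14 for CYCB2;4, -0.01 to 0.22 for CDKB2;2, -0.18 to 0.15 for CKS1, -0.03 to 0.29 for EDE1, -0.07 to 0.27 for MAD2, -0.04 to 0.16 for BUB3.1 and -0.02 to 0.10 for BUBR1. MAD2 was called with the clock-gene covariate, and MYB3R4 without CT3. Of the changes of call, 20 lost a call, in 4 members, and 19 gained one, in 9 members. Each turned sign belongs to a value whose interval spans 0.

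No paired analysis was possible because the columns carry no replicate numbers that match the titles in both groups. Among the members the lowest counts were those of CYCA2;1, at 1 to 20 a library.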
